A study of Mus musculus with 7 samples.

Results

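The genes described here are 9 members of the T-box family of transcription factors that are known from the mesenchyme of limb, heart, pharynx, face and urogenital tract: Tbx1, Tbx2, Tbx3, Tbx4, Tbx5, Tbx15, Tbx18, Tbx20 and Tbx22. They were taken by name from a mouse single-colour microarray, where they are represented by 12 of 55681 distinct non-control probes and by 9 of 35696 gene names. Tbx20 has 3 probes, Tbx22 has 2 and each other gene has 1, and every one of these probes is a single spot on the array.

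T-box proteins bind DNA through a shared domain, the T-box, and act as activators or repressors. Tbx2 and Tbx3 are repressors of closely related sequence, and Tbx4 and Tbx5 are activators that are needed for outgrowth of the hindlimb and the forelimb, respectively. Tbx5 and Tbx20 are needed for formation of the heart, Tbx1 for the pharyngeal arches and the cardiac outflow tract, Tbx15 for parts of the skeleton, Tbx18 for vertebral patterning and the mesenchyme that clothes the ureter, and Tbx22 for closure of the palate.

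All RNA came from embryos of strain C57BL6J with an Osr1-GFP knock-in, in which green fluorescent protein (GFP) reports Osr1, a factor of the intermediate and lateral plate mesoderm. At E8.5, embryos were sorted into GFP-positive and GFP-negative cells. From the caudal part of E9.5 embryos, 3 populations were sorted: Osr1-GFP-positive cells with Itga8 and without Pdgfra (gated cells, enriched for nephron progenitors), the remaining GFP-positive cells (other cells), and GFP-negative cells. From E11.5 metanephric mesenchyme, gated and other GFP-positive cells were sorted. The control populations carry the same knock-in allele. The number of embryos in each sort is not given in the sources used here.

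Each of the 7 populations had 1 array, so no population has a replicate and no statistical test was run. Errors given as ± are those that the scanner software assigns to a spot, on the log2 scale, and cover neither embryo nor sort. Levels are on the log2 scale, with 0 at the signal of the 75th percentile spot of the same array. Where a probe was not well above background on 1 of 2 arrays, that side was raised, if lower, to the lowest level well above background on its array, and the fold is given as "at least". A difference counted from 4-fold. Between 56.2% and 84.1% of spots were well above background, the lowest share on the E8.5 GFP-negative array and the highest on that of the E9.5 other cells. The lowest level well above background was -3.46 on the E8.5 GFP-negative array and between -5.14 and -4.43 on the other arrays. For E9.5, the arrays of gated and of GFP-negative cells lay on one slide and the other 5 arrays on another. Slide and population therefore cannot be told apart in the E9.5 comparisons with other cells or in the comparison of gated cells between stages. The sort genes followed the labels: Osr1 was not well above background on either GFP-negative array, and Pdgfra stood at -0.52 in gated against 3.44 in other cells at E9.5. At E11.5 Pdgfra stood at 4.04 in other cells and was not detected above background in the gate.

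All 9 genes were well above background on the arrays of E8.5 GFP-positive and E9.5 other cells. The number was 7 on E8.5 GFP-negative cells, 8 on E9.5 gated cells, 8 on E9.5 GFP-negative cells, 6 on E11.5 other cells and 4 on E11.5 gated cells. Of all spots, 70.3% were so on the E8.5 GFP-positive and 84.1% on the E9.5 other array. The shares were 56.2%, 72.4%, 73.8%, 74.0% and 72.7% on the remaining arrays, in the order above. The counts of the 9 genes were not tested against these shares. Neither gated population held the highest level of any of the 9 genes. E8.5 GFP-positive cells held the highest level of Tbx3, Tbx4 and Tbx20, E9.5 other cells that of Tbx5 and Tbx15, E11.5 other cells that of Tbx1, Tbx2 and Tbx18, and E9.5 GFP-negative cells that of Tbx22.

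**Figure D1:**
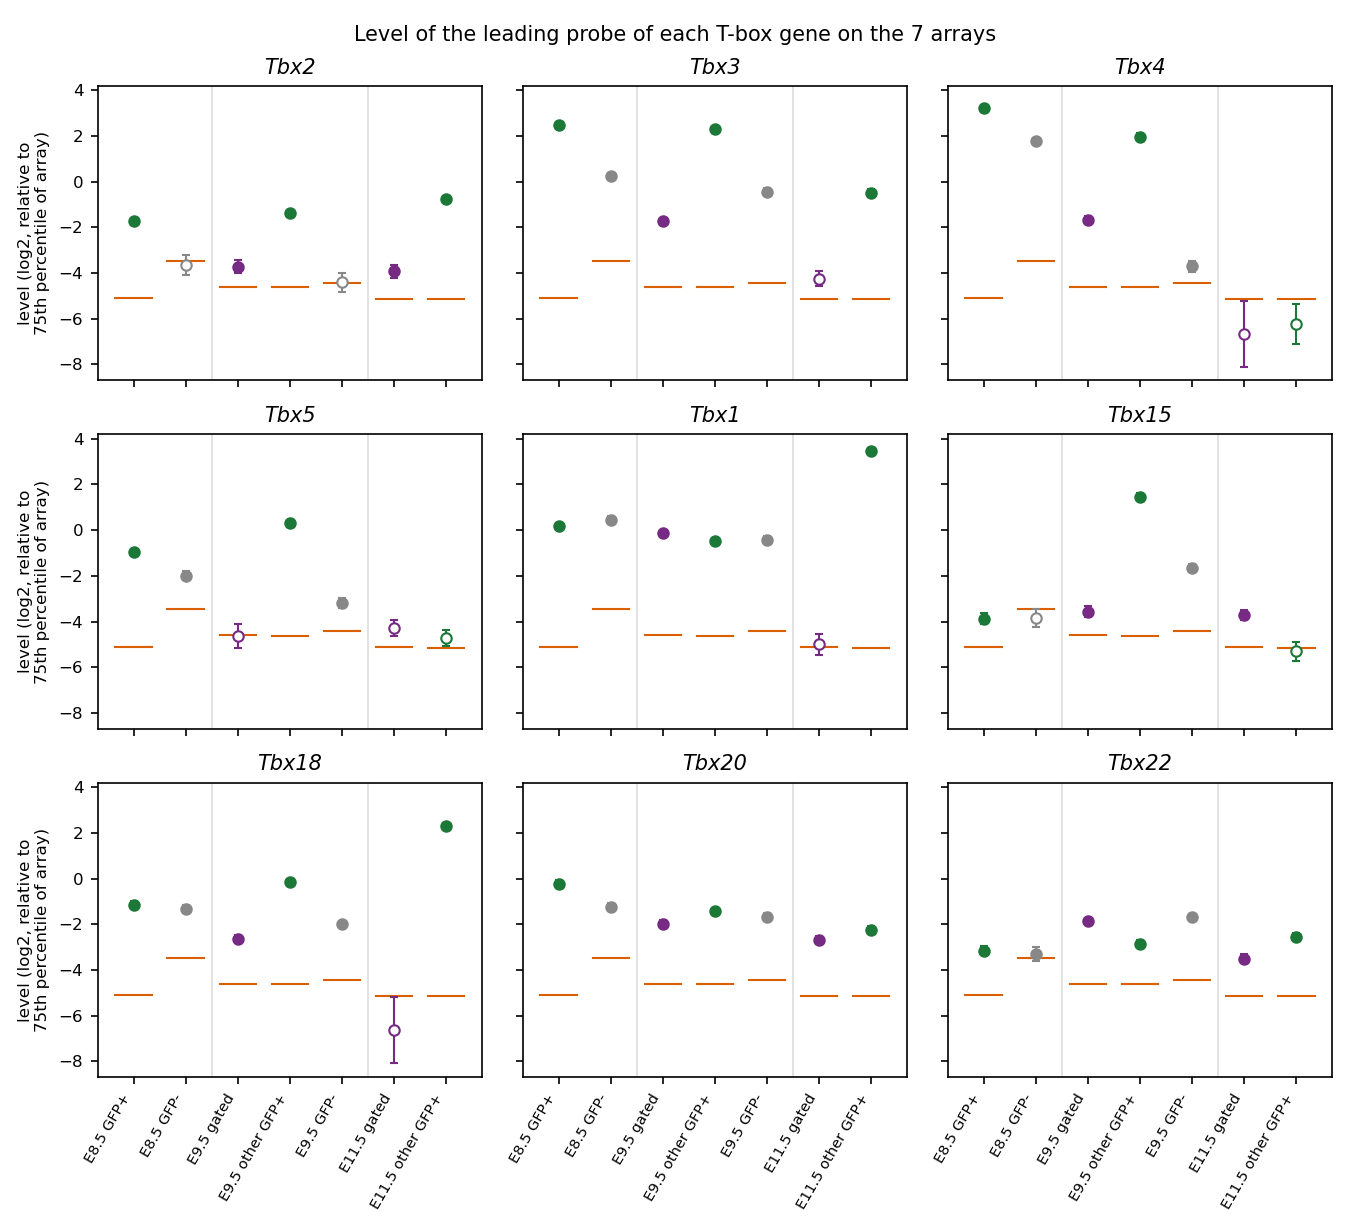
Level of the leading probe of each gene (log2 signal relative to the 75th percentile of the array, y axis) on the 7 arrays (x axis), in purple for gated cells, green for GFP-positive cells outside the gate or before gating, and grey for GFP-negative cells. Bars are the scanner's spot error, hollow points are not well above background, and orange lines mark the lowest level well above background on each array; the gated cells of E11.5 have 5 hollow points of 9.

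The limb pair Tbx4 and Tbx5 had its highest levels in E8.5 GFP-positive and E9.5 other cells and was not detected in either E11.5 population. The Tbx4 probe (mm9 chr11:85729510-85729569, plus strand) gave levels of 3.23 in GFP-positive and 1.78 in GFP-negative cells at E8.5. At E9.5 the Tbx4 levels were -1.66 in gated, 1.97 in other and -3.71 in GFP-negative cells. Neither E11.5 population had a Tbx4 signal well above background. The order from the top was thus E8.5 GFP-positive, then E9.5 other and E8.5 GFP-negative cells, which lay within 2 spot errors of each other (gap 0.18 ± 0.20), then E9.5 gated and E9.5 GFP-negative cells.

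The Tbx5 probe (mm9 chr5:120334087-120334146, plus strand) was well above background on 4 arrays. At E8.5 its levels were -0.97 (GFP-positive) and -1.99 (GFP-negative), and at E9.5 they were 0.30 (other) and -3.17 (GFP-negative). It was not well above background in gated cells of E9.5 or in either population of E11.5, and the 4 detected levels all differed from their neighbours in the order by more than 2 spot errors.

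Of the repressor pair, Tbx3 (mm9 chr5:120134511-120134570, plus strand) stood at 2.48 in GFP-positive and 0.24 in GFP-negative cells at E8.5. At E9.5 it stood at -1.74 in gated, 2.30 in other and -0.43 in GFP-negative cells. At E11.5 it stood at -0.47 in other cells and was not well above background in gated cells. E8.5 GFP-positive and E9.5 other cells were level (gap 0.18 ± 0.20), as were E9.5 GFP-negative and E11.5 other cells (0.04 ± 0.21). Tbx2 (mm9 chr11:85655391-85655450, plus strand) had levels of -1.72 in E8.5 GFP-positive cells, -3.72 and -1.38 in gated and other cells of E9.5, and -3.93 and -0.76 in gated and other cells of E11.5. On both GFP-negative arrays it was not detected above background. Its 2 gated levels lay within 2 spot errors of each other (gap 0.21 ± 0.41).

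Tbx1 and Tbx18 were both highest in E11.5 other cells, where the limb pair was not detected, but they parted at E9.5. Tbx1 (mm9 chr16:18581807-18581866, minus strand) lay between -0.48 and 0.45 on the 5 arrays of E8.5 and E9.5. Every step between neighbours in that order was within 2 spot errors. The ends of the order, E8.5 GFP-negative and E9.5 other cells, lay farther apart than 2 spot errors. Tbx1 then stood at 3.46 in E11.5 other cells and was not well above background in E11.5 gated cells. Tbx18 (mm9 chr9:87599514-87599573, minus strand) stood at -1.15 (GFP-positive) and -1.33 (GFP-negative) at E8.5, and at -2.65 in gated, -0.15 in other and -2.0 in GFP-negative cells at E9.5. It reached 2.29 in E11.5 other cells and, like Tbx1, was not well above background in E11.5 gated cells. At E9.5 the log2 difference of gated minus other cells was 0.36 for Tbx1 and -2.50 for Tbx18. Over the 7 arrays the levels of Tbx1 and Tbx18 had a Pearson correlation of 0.92, and those of Tbx2 and Tbx18 one of 0.81. Both are given as a description of 7 points that share 1 array per population.

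Tbx1 and Tbx18 were both highest in E11.5 other cells and not detected above background in E11.5 gated cells. For this reason the 250 bases before a start of each are shown, from RefSeq sequence of GRCm38.p6. Promoters were found there for 5 of the 9 genes (Tbx1, Tbx4, Tbx18, Tbx20 and Tbx22). The Tbx1 window is chr16:18590672-18590921 on the minus strand, taken at the outer of the 2 starts listed for the gene. The other Tbx1 window (chr16:18588900-18589149) lacks a T-box half-site and holds 1 GC box. The Tbx18 window is chr9:87731261-87731510 on the minus strand. Capitals mark a T-box half-site in the Tbx1 window shown and a CCAAT box, on the opposite strand, in that of Tbx18.
Tbx1: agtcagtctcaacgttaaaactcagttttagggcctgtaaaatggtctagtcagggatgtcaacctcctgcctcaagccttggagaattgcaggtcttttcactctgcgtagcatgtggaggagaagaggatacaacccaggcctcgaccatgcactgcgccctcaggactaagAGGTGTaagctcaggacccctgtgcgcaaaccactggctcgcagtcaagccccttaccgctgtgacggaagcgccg
Tbx18: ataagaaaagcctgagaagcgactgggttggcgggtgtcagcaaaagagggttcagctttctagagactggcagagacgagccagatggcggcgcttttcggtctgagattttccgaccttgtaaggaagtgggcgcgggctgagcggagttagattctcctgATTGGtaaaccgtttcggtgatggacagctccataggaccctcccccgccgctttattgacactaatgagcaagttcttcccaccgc

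The letters AGGTGT, searched on both strands, lie 76 to 71 bases before the Tbx1 start and in 11.8% of the 250-base windows of all 32851 promoters. The letters CCAAT, on either strand, lie 87 to 83 bases before the Tbx18 start and in 33.9% of all windows. The 5 motifs searched on both strands also included the TATA box (TATAAA), the GC box (GGGCGG) and a GATA site (AGATAA). Neither of the windows shown held a motif that the other shown window held. A match is a description of the letters.

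Tbx15 (mm9 chr3:99157901-99157960, plus strand) was high on a single array. It stood at 1.46 in the other cells of E9.5 and at -1.64 in GFP-negative cells of that stage. Its levels in E8.5 GFP-positive, E9.5 gated and E11.5 gated cells were -3.87, -3.58 and -3.70, and it was not well above background in E8.5 GFP-negative or E11.5 other cells.

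The probes of Tbx20 did not give one profile. The probe with the highest mean (mm9 chr9:24563177-24563236, minus strand) was well above background on all 7 arrays, at -0.23 (GFP-positive) and -1.23 (GFP-negative) at E8.5. At E9.5 this probe gave -1.98 in gated, -1.42 in other and -1.68 in GFP-negative cells, and at E11.5 it gave -2.69 in gated and -2.23 in other cells. The second (mm9 chr9:24527750-24527809) was well above background on 4 arrays, at -0.85 and -1.41 at E8.5 and -2.14 and -4.03 in other cells of E9.5 and E11.5. The third (mm9 chr9:24544715-24544774) was well above background on 3 arrays, at -1.43 and -2.31 at E8.5 and -2.28 in other cells of E9.5. All 3 were highest in E8.5 GFP-positive cells, and only the first was well above background in either gated population. The file assigns the first and the third to one transcript and the second to another. The first is shown because it alone was well above background on every array, and unlike the other 2 it has no stop codon in any of its 3 forward frames.
Tbx20 leading probe: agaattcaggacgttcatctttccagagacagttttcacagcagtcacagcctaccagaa

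Tbx22 varied less over the arrays, and its probes also disagreed. The leading probe (mm9 chrX:104884006-104884065, plus strand) stood between -3.50 and -1.69, highest in E9.5 GFP-negative (-1.69) and gated cells (-1.88), which lay within 2 spot errors. The second probe (mm9 chrX:104881102-104881161, plus strand) was highest in E9.5 other cells, at -3.05, and was not well above background in E8.5 GFP-negative or E9.5 gated cells. The last 30 bases of the second probe are shown because they end in an 18-base run of alternating A and G, in capitals.
Tbx22 second probe: aaggaaagagaaAGAGAGAGAGAGAGAGAG

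**Figure D2:**
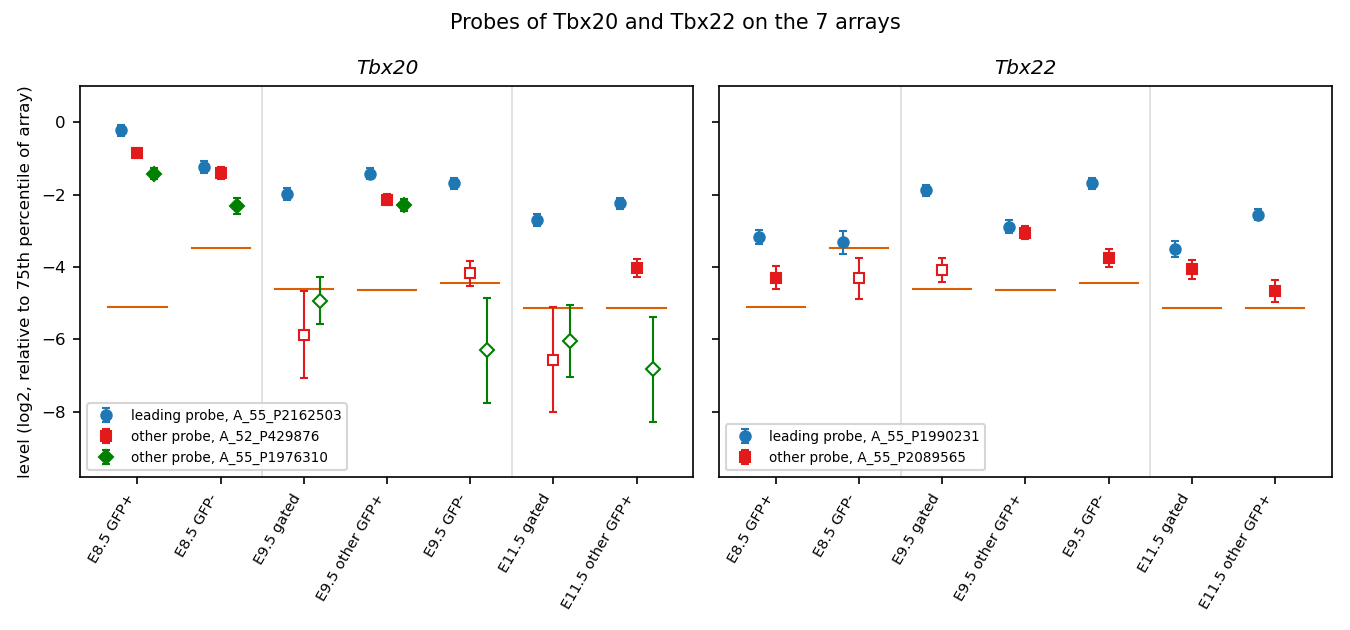
Levels (log2 relative to the 75th percentile of the array, y axis) of the 3 probes of Tbx20 and the 2 probes of Tbx22 on the 7 arrays (x axis), with spot errors as bars, hollow symbols for values not well above background and orange lines for the lowest level well above background. The leading Tbx20 probe is filled on all 7 arrays, while the other 2 are filled on 4 and 3.

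At E8.5, where Osr1-GFP-positive cells were set against GFP-negative cells, 1 of the 9 genes was at least 4-fold higher in GFP-positive cells and none lower, against 0.769% of all genes higher and 2.18% lower. That gene was Tbx3, 4.71-fold higher (log2 2.24 ± 0.21; 1.91 after normexp background correction and quantile normalisation). Tbx4 was 2.72-fold higher, Tbx5 2.03-fold and the leading Tbx20 probe 2.01-fold. Tbx2 was at least 3.33-fold higher, a bound that leaves a larger fold possible. The median log2 difference of the 9 genes was 1.01, against 0.02 for all genes. In a bulk population fewer cells of a type and less RNA per cell cannot be told apart, here or in the comparisons that follow.

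Of 17 measured factors of the limb bud, 6 were at least 4-fold higher in the E8.5 GFP-positive cells and 1 (Shh) was lower, with a median of 1.63. The 6 included Isl1 (13.3-fold), which acts upstream of hindlimb outgrowth, Prrx1 (9.31-fold), Fgf10 (8.05-fold), the limb growth factor induced by Tbx4 and Tbx5, and Hand2 (6.81-fold). Of 17 heart genes, 4 were higher and none lower: Myh6 (8.96-fold), Gata6 (7.30-fold), Tnnt2 (5.74-fold) and Actc1 (4.47-fold). Defining markers of heart muscle were well above background for 6 of 6 genes in GFP-positive and 4 of 6 in GFP-negative cells, where Nkx2-5 and Myl7 were not. The summed signal of these markers, in units of the 75th percentile, was 9.72 against 1.87 and between 0.763 and 2.74 on the other 5 arrays. Of markers of other cells, 6 of 6 for red cells were at least 4-fold lower in GFP-positive cells (median -8.94, summed signal 6.46 against 2072), as were 2 of 5 measured neural markers, Sox2 (13.6-fold) and Sox3 (12.1-fold). The part of heart muscle, blood or neural cells in the T-box differences was not tested.

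At E9.5, gated cells were set against other GFP-positive cells, the comparison the study made to separate nephron progenitors from surrounding mesenchyme. Here 6 of the 9 genes were at least 4-fold lower in gated cells and none higher, against 1.04% and 0.826% of all genes. Tbx15 was 33.0-fold lower (log2 -5.04 ± 0.28) and Tbx5 at least 30-fold lower. Tbx3 was 16.4-fold lower, Tbx4 12.3-fold, Tbx18 5.66-fold and Tbx2 5.04-fold. Tbx2 and Tbx18 fell short of 4-fold, at log2 -0.91 and -1.57, when background was corrected by normexp and arrays were quantile normalised.

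Tbx1 did not differ by more than 2 spot errors between these populations (log2 0.36 ± 0.21). The leading Tbx20 probe was 1.47-fold lower in gated cells, while its other probes were at least 5.56-fold and at least 5.02-fold lower. The leading Tbx22 probe was 2.0-fold higher in gated cells (log2 1.0 ± 0.24), and the other Tbx22 probe was at least 2.04-fold lower. The median over the 9 genes was -2.50, against -0.14 for all genes.

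Of 18 limb bud factors, 8 were at least 4-fold lower in gated cells and none higher, with a median of -1.90. Among them were Hand2 (at least 32.9-fold), Hoxd13 (16.8-fold), Shh (at least 13.9-fold), Lhx2 (11.8-fold), Msx2 (9.18-fold), Pitx1, a hindlimb factor upstream of Tbx4 (8.93-fold), and Prrx1 (8.58-fold). Of 17 heart genes, Gata6 alone was at least 4-fold lower (5.86-fold). Of 14 genes of ureteric mesenchyme and renal stroma, Tshz3 alone was (4.66-fold). Of 15 genes of skeletal and craniofacial mesenchyme, 3 were lower: Prrx1, Twist1 (8.34-fold) and Alx1 (4.47-fold). The 8 remaining T-box genes of the array had no such difference in the 6 that could be measured, and T and Tbx19 were not well above background in either population.

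Markers of further cell types moved with this comparison. Of 6 stromal markers, which include the sort gene Pdgfra, 4 were lower in gated cells, and their summed signal was 14.2 against 48.1. All 6 endoderm markers were well above background in other cells and 2 of 6 in gated cells, where Foxa1, Foxa2, Cdh1 and Shh were not. By fold, 3 of the 6 were lower in gated cells and 1, Sox17, was 4.36-fold higher. Of 5 endothelial markers, Cldn5 was 5.0-fold higher in gated cells and no other passed 4-fold. Of 6 markers of red cells, 3 were lower in gated cells (summed signal 1.67 against 9.84), as was 1 of 5 markers of surface ectoderm. The part of these cells in the T-box differences was not tested.

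E9.5 gated and GFP-negative cells, whose arrays shared a slide, differed past 4-fold in 1 of the 9 genes. Tbx4 was 4.15-fold higher in gated cells (log2 2.05 ± 0.30), and no other fold or bound reached 4-fold, against 1.11% of all genes higher and 1.6% lower. Tbx15 was 3.84-fold lower, Tbx5 at least 2.71-fold lower and Tbx3 2.47-fold lower in gated cells. Tbx4 dropped below 4-fold under 2 other settings (log2 between 0.80 and 2.12 over all settings). The median over the 9 genes was -0.30. Of markers of other cells, 6 of 6 for red cells (median -8.65), 4 of 6 neural (median -4.94), 3 of 6 endoderm and 2 of 5 surface ectoderm markers were at least 4-fold lower in gated cells. Sox17 was 10.6-fold higher, and 6 of 9 nephron progenitor markers, including the sort genes Osr1 and Itga8, were higher (median 3.46). The part of these cells in the T-box values was not tested.

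The other cells of E9.5 were set against GFP-negative cells from the same part of the embryo. In this comparison 5 of the 9 genes were at least 4-fold higher in other cells and none lower, against 0.699% and 1.1% of all genes. Tbx4 was 51.1-fold higher, Tbx5 11.1-fold, Tbx15 8.58-fold, Tbx2 at least 8.15-fold and Tbx3 6.66-fold. Tbx2 stayed past 4-fold in 5 of 6 other settings, with a lowest log2 difference of 1.07. The leading Tbx22 probe was lower in other cells (log2 -1.19), while the second Tbx22 probe stood at -3.05 in other and -3.74 in GFP-negative cells. Tbx18 was 3.61-fold higher, and Tbx1 did not differ by more than the spot error (log2 -0.06 ± 0.21). The second probe and the third probe of Tbx20 were at least 4.09-fold and at least 4.43-fold higher, and the leading probe 1.19-fold. Of 18 limb bud factors, 7 were higher and none lower, including Pitx1 (29.7-fold), Lhx2 (14.4-fold), Prrx1 (10.8-fold) and Hand2 (10.6-fold). Red cell markers were lower in other than GFP-negative cells for 6 of 6 genes (median -6.70) and neural markers for 5 of 6 (median -4.68), and their part in the T-box differences was not tested. The 2 E9.5 comparisons of other cells share that array, so their folds are not independent of each other.

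At E11.5, gated cells were again set against other GFP-positive cells, on 1 slide. Of the 7 genes that could be measured, 4 were at least 4-fold lower in gated cells and none higher, against 2.84% and 1.97% of all genes. Tbx1 was at least 353.3-fold lower and Tbx18 at least 170.2-fold lower. Tbx3 was at least 13.7-fold lower, and Tbx2 was 8.99-fold lower (log2 -3.17 ± 0.31), the one gene of the 4 well above background on both arrays. With normexp, Tbx1 and Tbx18 stayed past 4-fold (log2 -5.62 and -4.39), while Tbx3 and Tbx2 fell short of it (-1.70 and -1.23). Tbx4 and Tbx5 were well above background in neither population. Tbx15 lay on the opposite side, at least 2.72-fold higher in gated cells. The leading Tbx20 and Tbx22 probes were 1.37-fold and 1.93-fold lower in gated cells, and the second Tbx22 probe was 1.52-fold higher. The median over the 7 genes was -3.17, against 0.15 for all genes.

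**Figure D3:**
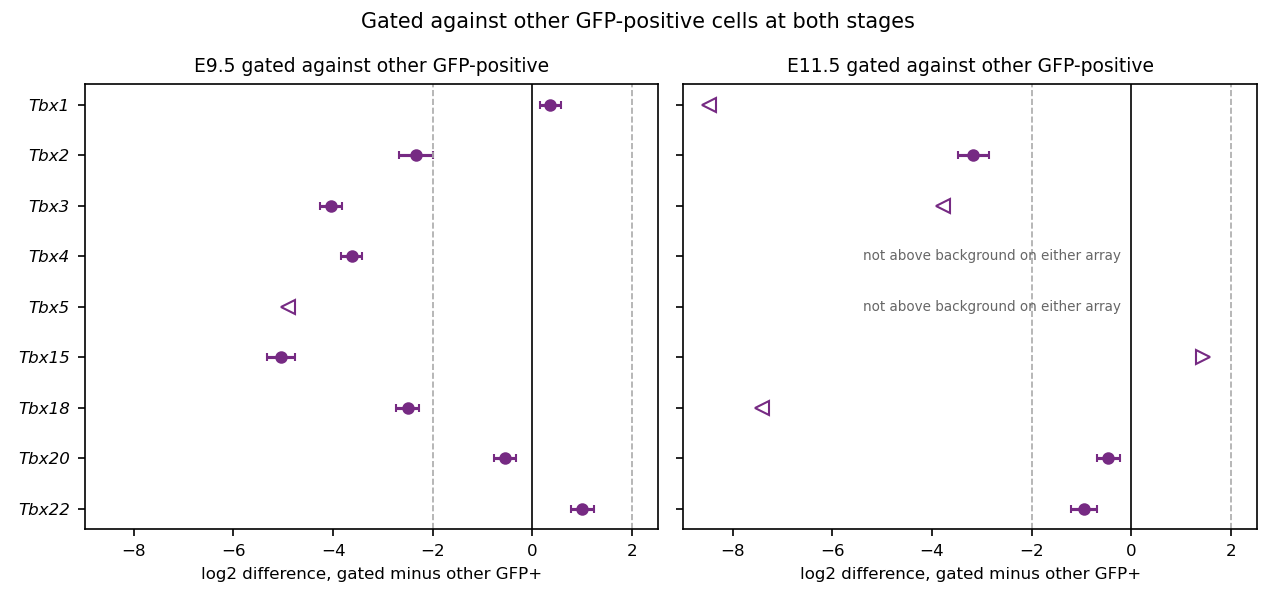
Log2 difference of gated minus other GFP-positive cells (x axis) for the leading probe of each gene at E9.5 (left) and E11.5 (right), with the scanner's spot error of the difference as bars; triangles are bounds and dashed lines mark 4-fold. At E9.5 6 genes lie past the left line, and at E11.5 Tbx1 and Tbx18 lie farthest to the left.

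Of 14 genes of ureteric mesenchyme and renal stroma, 6 were at least 4-fold lower in E11.5 gated cells and none higher: Pdgfrb (22.2-fold), Foxd1, the factor that marks renal stroma (21.9-fold), Sox9 (15.4-fold), Gli1, a target of Hedgehog signalling (10.8-fold), Tshz3 (4.51-fold) and Dcn (at least 4.37-fold). All 6 stromal markers were lower, with a median of -6.17 and a summed signal of 4.47 against 153.3. They include the sort gene Pdgfra, and Foxd1 and Pdgfrb, which are already counted above. Pdgfra and Twist1 were not well above background in gated cells. The part of the stromal cells in the differences of Tbx1, Tbx2, Tbx3 and Tbx18 was not tested. The heart muscle marker Nkx2-5 was not well above background in either population, and of 14 heart genes 2 were lower in gated cells, Gata6 (38.8-fold) and Actc1 (at least 25.2-fold).

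Of 16 limb bud factors at E11.5, 4 were lower in gated cells (Isl1, 24.3-fold; Prrx2, at least 5.86-fold; Hoxd13, 5.82-fold; Pitx1, at least 4.30-fold), and Fgf10 was 11.4-fold higher. Of 13 genes of skeletal and craniofacial mesenchyme, 2 were lower, Twist1 (at least 128.5-fold) and Alx1 (at least 39.0-fold). Meox2 (22.9-fold) and Pax9 (at least 11.51-fold) were higher, on the same side as Tbx15.

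**Figure D4:**
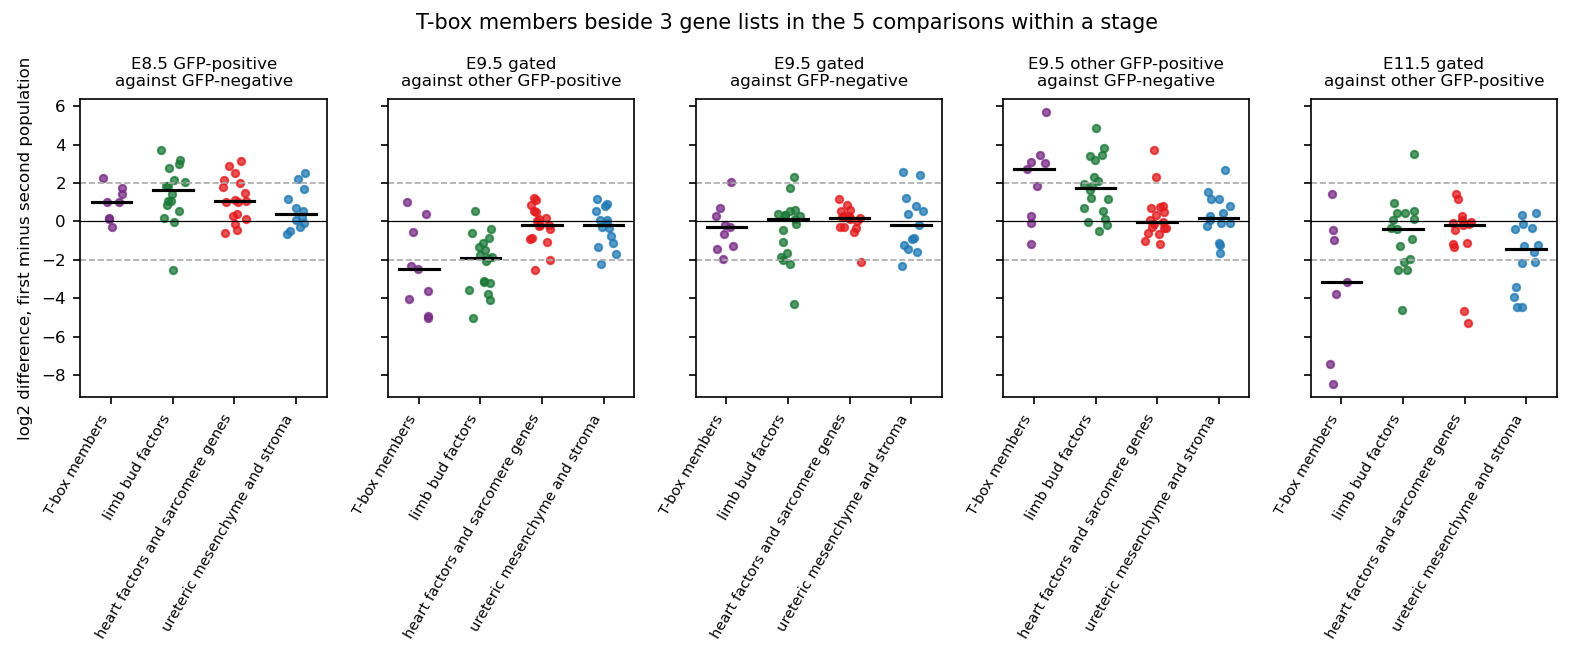
Log2 difference of the first minus the second population (y axis) in the 5 comparisons within a stage. Each point is 1 T-box gene, or 1 gene of 3 lists (x axis), with a difference or bound. Black bars are medians and dashed lines mark 4-fold. Relative to 0, the medians of limb bud factors lie on the side of the T-box genes in 4 of 5 panels, and those of ureteric mesenchyme and stroma in all 5. The ureteric median lies near that of all genes for E9.5 gated against other cells (-0.21 against -0.14). It also does so for E9.5 other against GFP-negative cells (0.17 against 0.14). For E9.5 gated against other cells the medians are -2.50 (T-box), -1.90 (limb) and -0.21 (ureteric). For E11.5 they are -3.17, -0.38 and -1.44.

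Between stages, 4 of 8 measured genes were at least 4-fold lower in gated cells at E11.5 than at E9.5 and none higher, against 2.71% and 1.17% of all genes. Tbx1 was at least 29.6-fold lower, Tbx4 at least 11.03-fold, Tbx3 at least 5.70-fold and Tbx18 at least 5.53-fold. Tbx2 (log2 -0.21 ± 0.41) and Tbx15 (-0.12 ± 0.33) lay within the spot error. Each of the 4 folds is a bound, with normexp only that of Tbx1 stayed past 4-fold (log2 -2.08), and the tissue dissected, caudal embryo or metanephric mesenchyme, changed with the stage. Stromal markers were lower at E11.5 for 5 of 6 genes (median -2.41), including Twist1 (at least 27.0-fold) and the sort gene Pdgfra (at least 24.2-fold). Endothelial markers were lower for 3 of 5 (median -2.45), and the part of either cell type was not tested.

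In other GFP-positive cells, whose arrays of both stages shared a slide, the genes parted in opposite directions. The tissue dissected, caudal embryo or metanephric mesenchyme, changed with the stage here too, so stage and tissue cannot be told apart. The median over the 9 genes was -0.81, against -0.35 for all genes. Of the 9 genes, 2 were at least 4-fold higher at E11.5 and 4 lower, against 1.45% and 3.41% of all genes. Tbx1 was 15.3-fold higher (log2 3.94 ± 0.21) and Tbx18 5.44-fold higher (2.44 ± 0.20). Tbx4 was at least 138.0-fold lower, Tbx15 at least 97.5-fold, Tbx5 at least 32.2-fold and Tbx3 6.85-fold. Tbx2 was 1.54-fold higher. Of 18 limb bud factors 11 were lower at E11.5 and none higher, among them Lhx2 (92.0-fold), Hand2 (at least 56.6-fold), Sall4 (32.2-fold), Msx2 (29.6-fold) and Pitx1 (25.2-fold). Of 6 stromal markers, 2 were higher, Foxd1 (19.1-fold) and Col1a1 (4.67-fold). Markers of endoderm were lower at E11.5 for 5 of 6 genes, of surface ectoderm for 3 of 5, of red cells for 3 of 6 and of endothelium for 2 of 5, and their part in the T-box differences was not tested.

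Of 12 known or proposed targets of repression by Tbx2 and Tbx3, between 9 and 12 were measured in each of the 7 comparisons. In 5 comparisons 1 of them passed 4-fold and in the other 2 none did, shares from which nothing is read against the percentages of all genes given above. These were Gja5, lower in GFP-positive cells at E8.5 (4.58-fold), Frzb in E9.5 gated against GFP-negative cells (9.32-fold higher) and in gated cells between stages (6.56-fold lower), Shisa2 in E11.5 gated cells (6.31-fold higher), and Cdh1 in other cells between stages (at least 4.87-fold lower). Of the cell cycle inhibitor genes, Cdkn1a and Cdkn1b were well above background on all arrays and lay within 4-fold in each comparison. Cdkn2a and Cdkn2b were largely not measured or had bounds alone.

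Of the 9 genes, 4 form 2 pairs of neighbours in the genome. The probes of Tbx2 and Tbx4 lie 74.06 kb apart on chromosome 11 and those of Tbx3 and Tbx5 199.5 kb apart on chromosome 5 (mm9), and in each pair one gene is of the repressor type and the other of the limb type. Over the 7 arrays the levels correlated with r = 0.82 for Tbx3 and Tbx5 and with r = 0.26 for Tbx2 and Tbx4. At E11.5 Tbx2 was at its highest level in other cells while Tbx4 was not well above background. Of genes next to these pairs, chosen after their values were seen, Bcas3 and 2610027K06Rik near Tbx2 were well above background on all 7 arrays with ranges of 0.59 and 0.82. AU014795, whose probe lies 988 bases from that of Tbx2 on the opposite strand, was well above background on 3 arrays (E8.5 GFP-positive, E9.5 other and E11.5 other cells), the arrays on which Tbx2 itself was highest. Near Tbx3, Gm2301 was well above background in E9.5 other cells alone (-3.51), and near Tbx5, Gm5563 was so on 5 arrays with a range of 1.25.

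Among 4406 genes well above background on at least 2 arrays with a range of at least 2 log2 units, those with the profile most like each member were found by Pearson correlation over the 7 arrays. Tbx18 was most like Col1a1, a fibrillar collagen gene (r = 0.993), and Cd248 (0.984). Tbx1 was most like Srsf12 (0.989), Tbx2 like Sv2a (0.990), Tbx3 like Fbln1 (0.970), Tbx4 like Rprl3 (0.986), and Tbx5 like Cyp2j11 (0.981). Tbx15 was most like Slc6a17 (0.952), the leading Tbx20 probe like Zfp777 (0.980) and the leading Tbx22 probe like Nefm (0.984). Next for the leading Tbx20 probe were Tubb6 (0.980) and the heart pacemaker channel gene Hcn4 (0.975). Hcn4 had a level on the E8.5 GFP-positive and E9.5 other arrays alone, and bounds on the rest. The correlations given describe the highest of many over 7 arrays, of which several hold a bound rather than a level.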

How the data were processed

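Signal intensity was deposited for 7 single-colour (Cy3) Agilent mouse arrays, 1 per sorted population, from 10 ng of RNA amplified before labelling, per the labels' protocols. Per the submitters' processing notes, the authors used Agilent Feature Extraction 10.7.3.1 to extract it. Per the file headers it is a background-subtracted linear intensity, and all 62976 values of each array in the deposited series table equal it. The 59305 non-control spots per array were used, and none was saturated. Spots flagged as outliers were left out of a probe's mean, but were kept where the probe had no unflagged spot. The 75th percentile was taken over all these spots, flagged or not. From the deposited intensity, log2 levels were computed relative to the 75th percentile spot of each array. The percentile signals were between 230.7 and 300.0. For genes with several probes, the leading probe is that of highest mean over the arrays. All genes with a probe passed through the same steps, and percentages of genes called are over those measured in a comparison.

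With 1 array per population each comparison is a difference between 2 arrays with no test, and precision is limited by the number of arrays. Probes spotted 10 times spread over an array with a standard deviation of 0.10 log2 units (0.15 for a difference between arrays). The step to differences was tested on simulated data, with changes set only in genes far above background. No changed gene fell to a bound there, so the step to bounds was not tested. The 9 genes, the gene lists and the rule for named genes (all members, the 3 most like profiles, list genes by size of difference, defining genes at any value) were chosen with earlier results of these data known. Tools were Python 3.11.15, pandas 2.3.3, R 4.3.3 and limma 3.58.1. Alternatives were quantile normalisation, normexp with offset 50, no scaling, another percentile set, the mean of all probes, 2 rules on dim probes and a 2-fold threshold. Probe coordinates are those of mm9 in the files.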

Additional observations from a re-analysis of the deposited data

Results flagged for a closer look

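Tbx15 differed in opposite directions between gated and other GFP-positive cells at the 2 stages where both were sorted. The log2 difference of gated minus other cells was -5.04 at E9.5 and 1.44 at E11.5, where the second value is a bound that normexp with quantile normalisation lowers to 0.26. Tbx22 also changed side, with 1.0 at E9.5 and -0.95 at E11.5 for its leading probe. With 1 array per population the difference between stages was not tested for either gene. The second Tbx22 probe gave the opposite sides at both stages (a bound of -1.03 at E9.5 and 0.60 at E11.5).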

How the results depend on the processing

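No paired analysis was possible because each population had 1 array, and for the same reason no replicate could be left out. Over 8 alternatives, 97 of 112 counts of called T-box genes stayed within 1.5 times the reported count. The 97 include counts that were 0 and stayed 0, which meet this rule by its construction. The 27 differences of at least 4-fold kept their sign in every alternative that gave a value, and 17 stayed past 4-fold in all of them. Of 32 smaller differences and bounds 27 kept their sign. With normexp and quantile normalisation, the count of higher genes at E8.5 went from 1 to 0. In E9.5 gated against GFP-negative cells the count of higher genes also went from 1 to 0. That of lower genes went from 4 to 2 in E11.5 gated cells, and from 4 to 1 in gated cells between stages. Among all genes the counts with normexp were, in that order, 30 of 26921, 66 of 28771, 238 of 29088 and 117 of 28927. With genes required above background on both arrays, the count of lower genes was 1 in E11.5 gated cells and 0 in gated cells between stages. In other cells between stages it went from 4 to 1. Among all genes this filter gave, in that order, 446 of 25671, 346 of 25376 and 420 of 26885. That filter removes every bound, so the cause is its construction. For E9.5 gated against GFP-negative cells, quantile normalisation alone gave 1 lower gene in place of 0, and the unscaled table gave 1 lower and 0 higher. Of all 28771 genes measured there, 506 were lower with quantile normalisation, and 582 were lower and 239 higher in the unscaled table. At 2-fold, the counts were 5 higher at E8.5 and 1 higher in E9.5 gated against other cells. Against GFP-negative cells of E9.5, 3 were lower in gated and 1 in other cells. In E11.5 gated cells 1 was higher. Among all genes the 2-fold counts were, in that order, 1665 of 26921, 1606 of 31468, 1633 of 28771, 1501 of 31612 and 2964 of 29088. Apart from the filter and the threshold, the cause of these changes was not tested. With the mean of all probes, 7 genes were lower in E9.5 gated than other cells and 6 higher in other than GFP-negative cells. Each time Tbx20 was added. Among all genes the mean gave 300 of 31173 lower and 221 of 31343 higher in these comparisons. The Tbx22 difference of gated minus other cells became -0.01 with the mean. Scaling moved the median of all genes most for other cells between stages, from -0.35 to -0.04 with quantile normalisation. The E8.5 GFP-negative array, with the fewest spots above background, has the highest bound and hides low levels there.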

Other observations

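Among the 8 T-box genes outside the group, T, which marks the primitive streak and tail bud, was at least 12.4-fold lower in E9.5 gated and at least 11.8-fold lower in E9.5 other cells than in GFP-negative cells. At E8.5 it stood at -1.30 (GFP-positive) and -0.92 (GFP-negative), and at E9.5 at -0.98 in GFP-negative cells, while the other 4 arrays gave no T signal well above background. Mga, which carries a T-box and also binds Max, did not reach 4-fold in any comparison, and Tbx19 was not well above background on any array.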
